A study of Mus musculus with 12 samples.

Results

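The 28 genes described here encode the enzymes of cholesterol synthesis, the enzymes that supply its acetyl-CoA, the sterol-sensing SREBP system and 1 sterol carrier, and they were chosen by symbol from a table of read counts for 23479 mouse gene symbols. All 28 were in the table, Msmo1 under its older name Sc4mol, and all 28 were among the 15082 genes with enough counts to be tested. RNA was measured in bulk from 12 prostate tumours grown in C57BL/6J mice from PTE-82, a single TMPRSS2-ERG fusion line of mouse prostate cancer, in 4 groups of 3 tumours. The first group received Lupron, a drug that lowers testosterone through the pituitary, together with an antibody against CSF1, the growth factor on which macrophages depend (Lupron/anti-CSF1). The second received the antibody alone (anti-CSF1), the third Lupron alone, and the fourth the control antibody (IgG). Every mouse had 100000 cells in 40 µl injected into the prostate, and Lupron was given on day 4 at 0.6 mg per mouse. The antibody against CSF1 was given on days 9 and 14, and tumours were taken on day 17. The age of the mice, and whether the Lupron group also received IgG, are not given by the sources used here. Each tumour holds cells of the line together with prostate, stroma and immune cells of the host. The series title names cholesterol from macrophages as its subject, and the comparisons below show how synthesis genes were expressed when the antibody, Lupron or both were given.

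Cholesterol is built from acetyl-CoA. Acetyl-CoA units are joined and reduced to mevalonate, mevalonate becomes isoprenoids, isoprenoids join to squalene, squalene is closed to the first sterol, lanosterol, and lanosterol is trimmed to cholesterol. The supply is set by SREBP transcription factors, which are made as membrane proteins of the endoplasmic reticulum: when sterol is low, SCAP escorts them to the Golgi, where they are cut and released to the nucleus, and when sterol is high, INSIG proteins hold SCAP back. SREBP-2, the product of Srebf2, mainly drives cholesterol genes, and SREBP-1, the product of Srebf1, mainly drives fatty acid genes. Prostate tumour cells use cholesterol for membranes and as the precursor of androgens.

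Promoter sequences were read from RefSeq (build GRCm38.p6) as 250 bases before to 50 bases after each gene's start, and 24 of the 28 genes had at least 1 such sequence, 32 promoters in all. Fdft1, Fdps, Sqle and Stard4 had none and were not searched. SREBP binds sterol regulatory elements and often works beside factors that bind CCAAT, so 2 motifs were searched on both strands: TCACNCCAC, a form of the sterol regulatory element, and CCAAT, which reads ATTGG on the other strand. CCAAT was found for 22 of the 24 genes (91.7%), and 41.1% of the 27025 genes in the RefSeq table held it. That table was not limited to genes with enough counts to be tested, as all 24 genes were. The exceptions were Acat2 and Scap. TCACNCCAC was found for 1 of the 24 genes (4.17%), Hmgcs1, and for 1.44% of all genes; its match begins 137 bases before the start. Other forms of the sterol regulatory element were not searched, so a gene without this match may hold another form. These matches describe letters and no binding. The 250 bases before the start are printed for Hmgcs1, the gene with both motifs, for Idi1 and Msmo1, the genes with the 2 highest fold changes below, and for Scap, which held neither motif; capitals mark the matches.
Hmgcs1, chr13:119690101-119690350, plus strand: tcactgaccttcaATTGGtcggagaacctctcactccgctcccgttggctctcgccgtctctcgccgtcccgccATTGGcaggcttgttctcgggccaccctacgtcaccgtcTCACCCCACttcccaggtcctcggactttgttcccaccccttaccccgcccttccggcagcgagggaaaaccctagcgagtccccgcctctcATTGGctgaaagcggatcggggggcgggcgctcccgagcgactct
Idi1, chr13:8885356-8885605, plus strand: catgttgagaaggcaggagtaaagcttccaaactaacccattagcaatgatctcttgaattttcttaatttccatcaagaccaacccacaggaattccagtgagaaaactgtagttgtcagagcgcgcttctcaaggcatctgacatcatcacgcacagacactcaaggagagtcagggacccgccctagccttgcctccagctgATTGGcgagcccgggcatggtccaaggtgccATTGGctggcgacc
Msmo1, chr8:64733579-64733828, minus strand: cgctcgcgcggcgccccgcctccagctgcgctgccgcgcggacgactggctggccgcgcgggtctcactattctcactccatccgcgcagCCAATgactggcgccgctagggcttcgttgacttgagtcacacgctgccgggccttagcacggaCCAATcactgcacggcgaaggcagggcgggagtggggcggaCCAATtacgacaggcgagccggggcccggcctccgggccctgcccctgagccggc
Scap, chr9:110333038-110333287, plus strand: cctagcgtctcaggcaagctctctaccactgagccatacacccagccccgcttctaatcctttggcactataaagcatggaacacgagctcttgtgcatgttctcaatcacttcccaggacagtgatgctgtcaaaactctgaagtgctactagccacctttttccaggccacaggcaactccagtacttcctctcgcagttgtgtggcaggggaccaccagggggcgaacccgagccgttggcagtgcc
In these 250 bases Hmgcs1 has the sterol element and 3 copies of ATTGG, Idi1 has 2 copies of ATTGG, and Msmo1 has 3 copies of CCAAT.

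Total counts per library lay between 20584363 and 29965355. Levels are in CPM (counts relative to the scaled library total, on the usual CPM scale), and each log2 fold change stands with its standard error from a fit to all 12 tumours. IgG replicate 3 stood apart: the mean log2(CPM + 1) of 15 proliferation genes was 2.87 in it, against 6.15 to 6.94 in the other 11 tumours, and that of 9 smooth muscle genes was 9.69, against 4.41 to 7.80. The mouse gene symbol Erg had its lowest level there, 8.01 CPM, where the other tumours had 10.7 to 22.4 CPM. Whether its counts include transcripts of the fusion is not given by the sources, so this level is no measure of tumour cells. Smooth muscle genes were next highest in IgG replicate 2 (7.80) and Lupron replicate 2 (7.14), and 7 seminal vesicle genes summed to 369610 CPM in Lupron replicate 2. The highest seminal vesicle sums of the other groups were 105940 CPM in IgG, 98413 CPM in anti-CSF1 and 73928 CPM in Lupron/anti-CSF1 tumours. Where leaving out IgG replicate 3 or Lupron replicate 2 turned an estimate given below for one of the 28 genes, or moved it by over 1.5 times, the estimate without that tumour is given too.

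Per kilobase of exon (GENCODE M21 on GRCm38), the most abundant transcripts over the 12 tumours were Cyp51 with a mean of 39.2 CPM per kb, Acly with 37.1, Hmgcs1 with 25.8, Fdps with 25.6 and Pmvk with 24.5. The least abundant were Tm7sf2 with 0.881 CPM per kb, Acss2 with 1.02 and Lss with 1.51. The length used was that of all annotated exons of a gene joined. It was longest for Lss and Acss2, at 10787 and 10163 bases, and a longer length lowers the level per kb. Tm7sf2 and Lbr encode sterol reductases for the same step, and Lbr, which is also a lamin-binding protein of the nuclear envelope, had the higher mean, 12.0 CPM per kb. The summed level of the 20 enzymes from Acat2 to Dhcr7 was 1142, 1420.2 and 1266 CPM in Lupron/anti-CSF1 tumours, 1141, 962 and 1119 CPM in anti-CSF1 tumours, 1119, 801 and 1135 CPM in Lupron tumours, and 999, 807 and 859 CPM in IgG tumours. All 3 Lupron/anti-CSF1 tumours lay above every Lupron, anti-CSF1 and IgG tumour, with anti-CSF1 replicate 1 less than 1 CPM below the lowest of them. Summed levels weigh abundant enzymes most: by the mean log2(CPM + 1) of the same 20 enzymes, Lupron/anti-CSF1 replicate 1 was at 5.40, below Lupron replicates 1 and 3 at 5.42 and 5.41. Lupron/anti-CSF1 replicate 2 had the highest level of 10 of the 20 enzymes. At the other end, IgG replicate 2 was among the 3 lowest tumours for 17 of the 20, Lupron replicate 2 for 14 and IgG replicate 3 for 12. In bulk RNA, fewer cells of a type and less RNA per cell cannot be told apart.

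**Figure D1:**
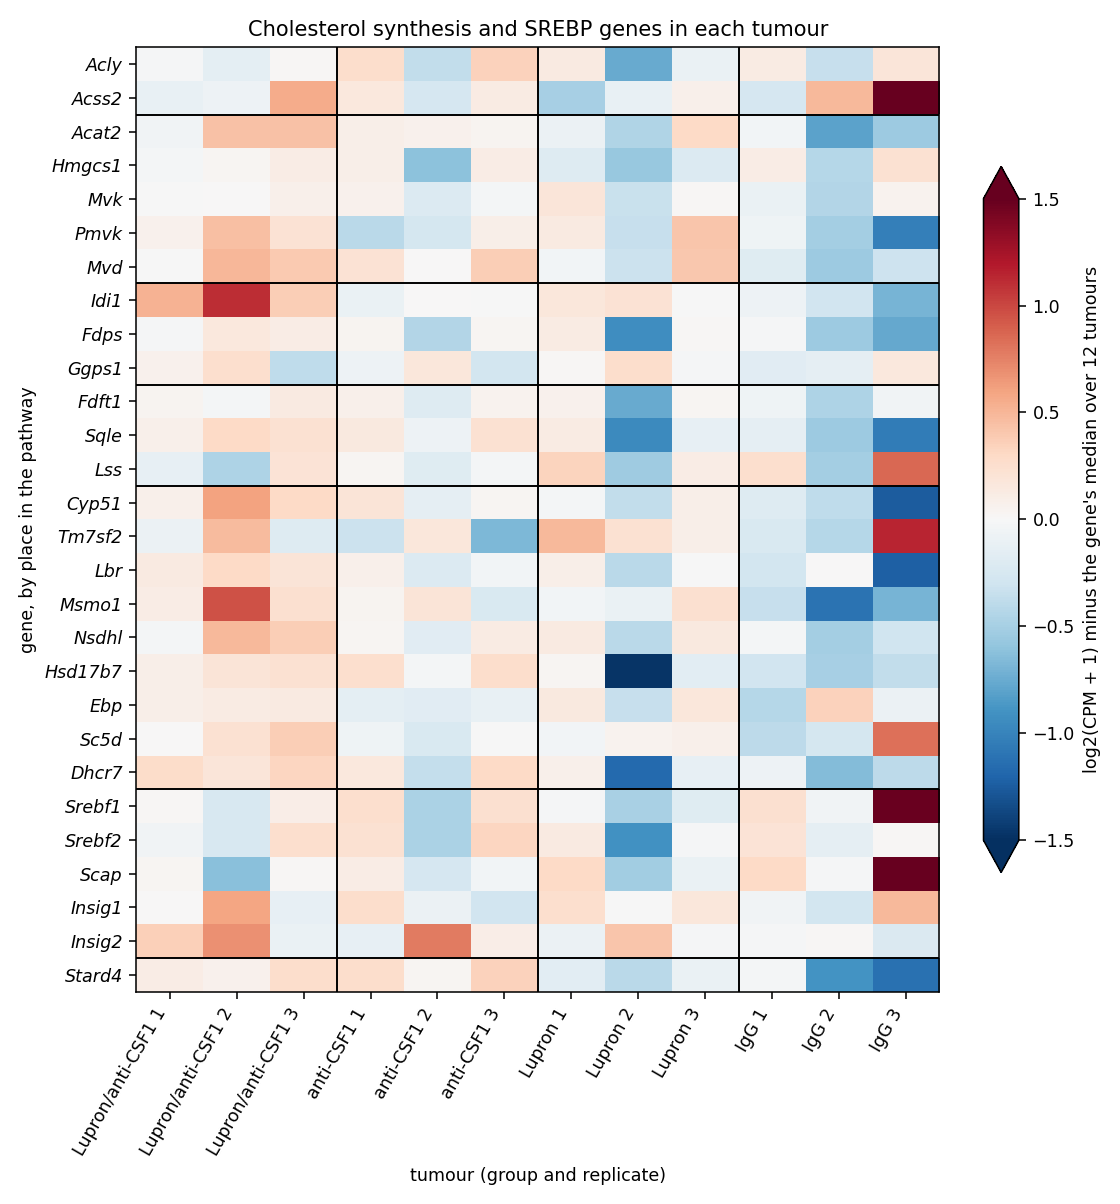
Levels of the 28 genes (rows, by place in the pathway) in each of the 12 tumours (columns, by group), as log2(CPM + 1) minus the gene's median over the tumours; colours end at 1.5 in either direction and arrows on the bar mark values beyond it. IgG replicate 3 is the highest tumour for 7 genes and the lowest for 7, and Lupron/anti-CSF1 replicate 2 is the highest for 11.

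The 6 tumours given the antibody (Lupron/anti-CSF1 and anti-CSF1) were set against the 6 without it (Lupron and IgG), the log2 change being the average of that with and that without Lupron. Most enzymes had positive estimates: 15 of the 20 (75%), with a median of 0.29, where 52.2% of all tested genes were positive and their median was 0.0207. No gene of the 28 passed edgeR's quasi-likelihood test at a Benjamini-Hochberg adjusted p under 0.05, where 1.87% of all tested genes did, 1.79% lower with the antibody and 0.0796% higher. At an unadjusted p under 0.05, 9 of the 28 genes (32.1%) were higher and 0 lower, where 5.32% of all tested genes were higher and 13.7% lower. DESeq2 called 1 of the 28 (3.57%), Stard4, and 9.45% of all genes.

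Stard4, a small carrier that moves sterol between membranes, was the only one of the 28 whose levels with and without the antibody did not overlap, which was so in the higher direction for 0.703% of all tested genes. It had 41.7, 40.5 and 46.8 CPM in Lupron/anti-CSF1 tumours, 46.8, 39.4 and 49.4 CPM in anti-CSF1 tumours, 34.7, 28.9 and 36.1 CPM in Lupron tumours, and 38.0, 20.3 and 17.2 CPM in IgG tumours. edgeR's quasi-likelihood test gave 0.61 ± 0.19 with an adjusted p of 0.139, and DESeq2 gave 0.59 ± 0.20 with an adjusted p of 0.0332. IgG replicate 1 was the highest of the tumours without antibody, and without that tumour the edgeR estimate was 0.83, adjusted p = 0.00888, with 10.1% of all genes called. Without IgG replicate 3 the estimate was 0.50.

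Msmo1, the oxidase that starts removal of the methyl groups at carbon 4 of the sterol ring, had 105, 190.3 and 115 CPM in Lupron/anti-CSF1 tumours, 101, 112 and 82.9 CPM in anti-CSF1 tumours, 94.6, 91.1 and 116 CPM in Lupron tumours, and 76.7, 44.9 and 59.8 CPM in IgG tumours. Its lowest levels were those of the 3 IgG tumours, and the other 3 groups overlapped. The antibody estimate was 0.57 ± 0.19, adjusted p = 0.156. Idi1, which isomerizes the isoprenoid building block, had 31.1, 46.8 and 27.9 CPM in Lupron/anti-CSF1 tumours, 19.7, 21.3 and 21.1 CPM in anti-CSF1 tumours, 24.0, 25.0 and 21.2 CPM in Lupron tumours, and 20.1, 17.2 and 12.7 CPM in IgG tumours. Its estimate was 0.45 ± 0.17, adjusted p = 0.188; the Lupron/anti-CSF1 tumours were the 3 highest of all 12, and the levels of anti-CSF1 and Lupron tumours overlapped. Sqle, which puts oxygen on squalene and is a rate-limiting step after mevalonate, had 64.2, 74.9 and 71.6 CPM in Lupron/anti-CSF1 tumours, 67.1, 57.5 and 71.3 CPM in anti-CSF1 tumours, 66.3, 30.8 and 55.9 CPM in Lupron tumours, and 55.2, 41.4 and 29.0 CPM in IgG tumours. Lupron replicate 2 and IgG replicate 3 were its lowest tumours, and its estimate was 0.55 ± 0.21, adjusted p = 0.191.

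By step, all 5 mevalonate enzymes had positive antibody estimates, the highest being 0.44 for both Acat2, which joins acetyl-CoA pairs, and Mvd, which makes the first isoprenoid. Of the 3 isoprenoid enzymes 2 were positive; Ggps1, which leads away from sterols to protein prenylation, was at −0.046 ± 0.15, and at 0.010 without IgG replicate 3. Of the 3 squalene and lanosterol enzymes 2 were positive, and Fdft1, which makes squalene, was at 0.20 ± 0.16, and at 0.086 without Lupron replicate 2. Of the 9 enzymes after lanosterol 6 were positive, among them Cyp51, the lanosterol demethylase (0.51 ± 0.19), Hsd17b7, a ketone reductase that acts when the carbon 4 methyl groups are removed (0.59 ± 0.23), and Dhcr7, the last reductase (0.50 ± 0.22). Sc5d, the desaturase before the last reduction, was at −0.040 ± 0.20, and at 0.21 without IgG replicate 3. Hsd17b7 and Dhcr7 had their lowest levels in Lupron replicate 2, 7.51 and 18.6 CPM. Without Lupron replicate 2 the median over the 28 genes was 0.111, against 0.216 with it, and 15 of 20 enzymes were positive.

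The 4 genes with negative antibody estimates and the smallest p all moved when IgG replicate 3 was left out. Scap, the sterol-sensing escort, had an antibody estimate of −0.57 ± 0.31 (adjusted p = 0.336) that was −0.16 without that tumour. Tm7sf2 had 3.17, 5.17 and 2.89 CPM in Lupron/anti-CSF1 tumours, 2.55, 3.98 and 1.78 CPM in anti-CSF1 tumours, 5.21, 4.19 and 3.72 CPM in Lupron tumours, and 2.78, 2.30 and 8.83 CPM in IgG tumours. IgG replicate 3 was its highest tumour, and its estimate was −0.49 ± 0.38 (adjusted p = 0.487) with that tumour and −0.052 without it. Lss, the cyclase that makes lanosterol, had 14.4, 11.2 and 18.3 CPM in Lupron/anti-CSF1 tumours, 16.2, 13.7 and 15.4 CPM in anti-CSF1 tumours, 20.2, 10.6 and 17.1 CPM in Lupron tumours, and 18.9, 10.8 and 29.4 CPM in IgG tumours. It too was highest in IgG replicate 3, and its estimate was −0.25 ± 0.25 (adjusted p = 0.582) with that tumour and −0.049 without it. Srebf1 was at −0.25 ± 0.26 (adjusted p = 0.596), and its estimate turned to 0.063 without IgG replicate 3. Without that tumour, 24 of the 28 genes and 17 of the 20 enzymes had positive antibody estimates, and the median over the 28 was 0.201.

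**Figure D2:**
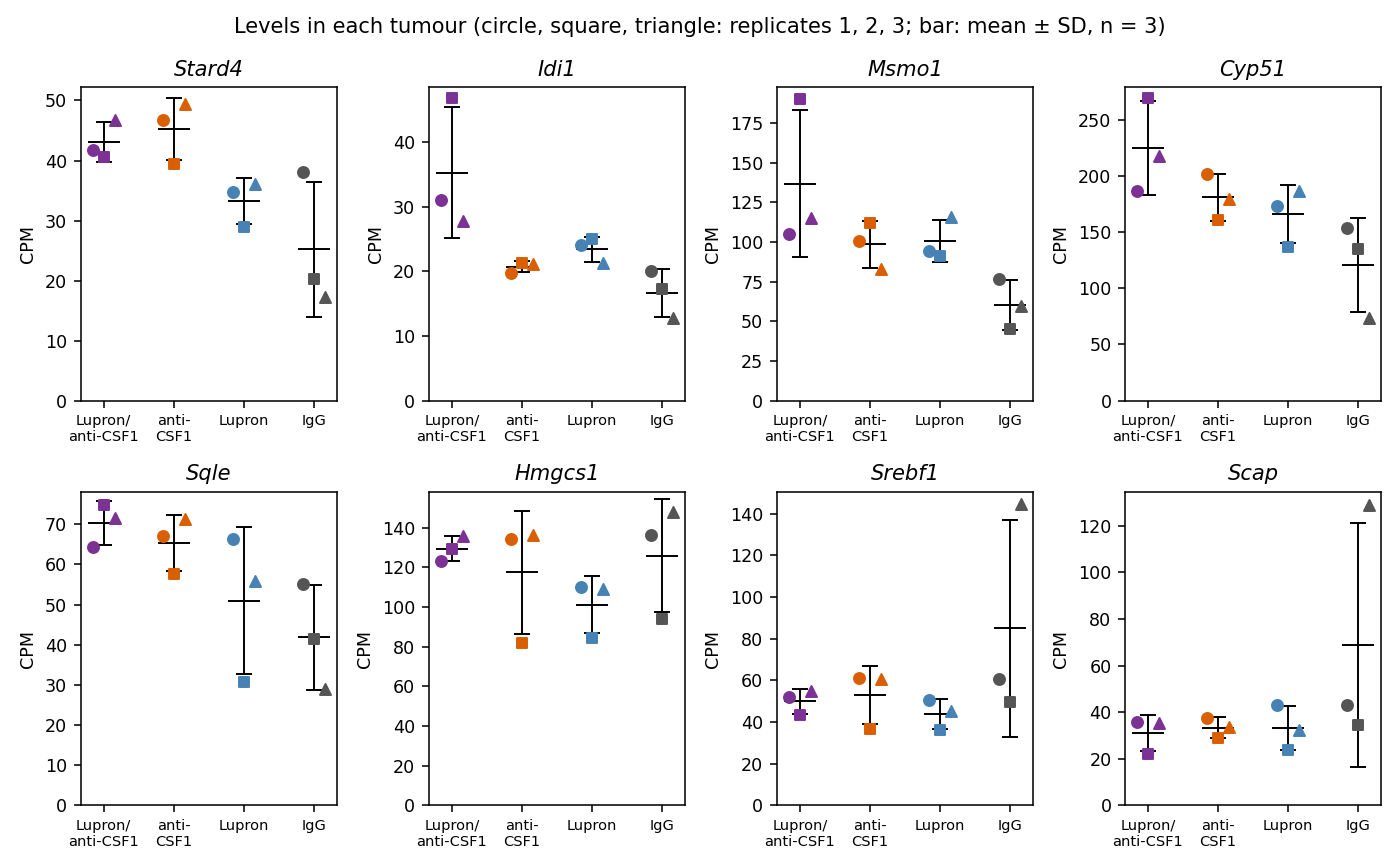
CPM of 8 genes in each tumour, by group, with bars for the mean and SD of 3 tumours; the y axes start at 0. Idi1 levels of Lupron/anti-CSF1 tumours lie above all others, while Srebf1 and Scap are set apart by IgG replicate 3 at 145 and 129 CPM.

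Lupron was compared the same way, as the 6 tumours given it (Lupron/anti-CSF1 and Lupron) against the 6 not given it (anti-CSF1 and IgG). Of the 20 enzymes 17 (85%) had positive estimates, with a median of 0.185, where 47.7% of all tested genes were positive and their median was −0.0229. By edgeR's quasi-likelihood test 0 of the 28 genes and 0% of all tested genes were called; at an unadjusted p under 0.05, 3 of the 28 (10.7%) were higher and 0 lower, where 3.73% of all genes were higher and 5.32% lower. DESeq2 called 0 of the 28 and 0.0796% of all genes. The 3 genes were Idi1 at 0.63 ± 0.17, Msmo1 at 0.60 ± 0.19 and Pmvk, the second mevalonate kinase, at 0.52 ± 0.20, each with an adjusted p of 0.525.

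Pmvk had 45.4, 59.9 and 50.6 CPM in Lupron/anti-CSF1 tumours, 32.7, 36.2 and 46.2 CPM in anti-CSF1 tumours, 47.7, 34.1 and 58.4 CPM in Lupron tumours, and 41.7, 30.2 and 20.9 CPM in IgG tumours. IgG replicate 3 was its lowest tumour, and the groups with and without Lupron overlapped. Cyp51 had 187, 269 and 218 CPM in Lupron/anti-CSF1 tumours, 202, 161 and 179.8 CPM in anti-CSF1 tumours, 173, 137 and 187 CPM in Lupron tumours, and 154, 135 and 73.8 CPM in IgG tumours. The Lupron estimate of Cyp51 was 0.38 ± 0.19, adjusted p = 0.525, IgG replicate 3 was again the lowest tumour, and the estimate was 0.26 without it. The lowest Lupron estimates were those of Scap (−0.58 ± 0.31) and Srebf1 (−0.52 ± 0.26), both with an adjusted p of 0.525, Acss2 (−0.46 ± 0.32, adjusted p = 0.574) and Acly (−0.18 ± 0.19, adjusted p = 0.702), which was at −0.075 without Lupron replicate 2. Scap, Srebf1 and Acss2 were at −0.17, −0.20 and −0.11 without IgG replicate 3. The median over the 28 genes was 0.129, and 0.0677 without IgG replicate 2, in which most enzymes were low.

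Set against IgG alone, the combination had the highest median over the 28 genes of the 8 comparisons made, 0.332. In Lupron/anti-CSF1 tumours 18 of the 20 enzymes (90%) had positive estimates, with a median of 0.58, where 48.2% of all tested genes were positive and their median was −0.0315; without IgG replicate 3 they were 19 of 20 with a median of 0.544. The levels of 13 of the 28 genes, 12 of them enzymes, lay above those of all 3 IgG tumours (46.4%), as did those of 15.1% of all tested genes. The 12 enzymes were Pmvk, Mvd, Idi1, Fdps, Fdft1, Sqle, Cyp51, Lbr, Msmo1, Nsdhl, Hsd17b7 and Dhcr7, and the other gene was Stard4. Fdps and Nsdhl did so by very little. Their lowest Lupron/anti-CSF1 levels, in replicate 1, were 117.59 and 34.855 CPM, against 117.42 and 34.814 CPM in IgG replicate 1. Still, 0 of the 28 passed edgeR's quasi-likelihood test, where 0.00663% of all tested genes did, and at an unadjusted p under 0.05, 10 were higher and 1 lower, where 9.54% of all genes were higher and 16.5% lower. Msmo1 averaged 137 ± 46.5 CPM in Lupron/anti-CSF1 tumours and 60.5 ± 15.9 CPM in IgG tumours (SD, n = 3 each), a 2.26-fold higher level (log2 1.18 ± 0.27, adjusted p = 0.112). Idi1 averaged 35.2 ± 10.1 CPM in Lupron/anti-CSF1 tumours and 16.7 ± 3.74 CPM in IgG tumours, 2.11-fold higher (1.08 ± 0.24, adjusted p = 0.108).

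Calls in this comparison depended on the test and on 1 tumour. DESeq2 called 3 of the 28 genes in this comparison, Idi1 (adjusted p = 0.00191), Msmo1 (0.00344) and Cyp51 (0.0188), and 13.9% of all genes. Without IgG replicate 1, edgeR's quasi-likelihood test called 6 higher, Acat2, Pmvk, Idi1, Cyp51, Msmo1 and Stard4, with adjusted p from 0.0135 to 0.039, and 14.2% of all genes. That fit left IgG replicates 2 and 3 as controls, which were among the 3 lowest tumours for 17 and 12 of the 20 enzymes. The gene lower at an unadjusted p under 0.05 was Scap, with 35.6, 22.1 and 35.2 CPM in Lupron/anti-CSF1 tumours, 37.6, 29.0 and 33.7 CPM in anti-CSF1 tumours, 43.2, 23.9 and 32.5 CPM in Lupron tumours, and 43.1, 34.4 and 129 CPM in IgG tumours. All but IgG replicate 3 lay between 22.1 and 43.2 CPM, and its estimate of −1.15 ± 0.45 was −0.32 without that tumour.

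Further enzymes whose Lupron/anti-CSF1 levels lay above all IgG tumours had lower fold changes than Msmo1 and Idi1. Mvd averaged 16.2 ± 3.02 CPM in Lupron/anti-CSF1 tumours, 15.0 ± 1.99 CPM in anti-CSF1 tumours, 13.3 ± 3.72 CPM in Lupron tumours, and 9.94 ± 1.37 CPM in IgG tumours (SD, n = 3 each, as for the means that follow). Fdps, which makes farnesyl diphosphate, averaged 126 ± 7.85 CPM in Lupron/anti-CSF1 tumours, 110.5 ± 19.7 CPM in anti-CSF1 tumours, 104 ± 36.9 CPM in Lupron tumours, and 89.5 ± 24.8 CPM in IgG tumours. Lupron replicate 2, at 62.2 CPM, and IgG replicate 3, at 69.8 CPM, were its lowest tumours. Fdft1 averaged 81.7 ± 4.65 CPM in Lupron/anti-CSF1 tumours, 78.0 ± 8.06 CPM in anti-CSF1 tumours, 69.6 ± 20.3 CPM in Lupron tumours, and 69.5 ± 10.9 CPM in IgG tumours. Nsdhl, the dehydrogenase of the carbon 4 demethylation, averaged 43.8 ± 7.94 CPM in Lupron/anti-CSF1 tumours, 35.6 ± 3.75 CPM in anti-CSF1 tumours, 35.1 ± 7.38 CPM in Lupron tumours, and 29.4 ± 5.14 CPM in IgG tumours. For both genes the levels of anti-CSF1 and Lupron tumours overlapped. The estimates of Fdps, Fdft1 and Nsdhl against IgG were 0.50 ± 0.29, 0.23 ± 0.23 and 0.57 ± 0.22, with adjusted p of 0.285, 0.516 and 0.151. Hsd17b7 averaged 25.6 ± 1.34 CPM in Lupron/anti-CSF1 tumours, 25.5 ± 2.98 CPM in anti-CSF1 tumours, 16.9 ± 8.30 CPM in Lupron tumours, and 17.1 ± 1.31 CPM in IgG tumours. Dhcr7 averaged 51.7 ± 2.69 CPM in Lupron/anti-CSF1 tumours, 44.9 ± 10.4 CPM in anti-CSF1 tumours, 34.4 ± 14.0 CPM in Lupron tumours, and 33.5 ± 7.01 CPM in IgG tumours. In both, the means of the 2 groups given the antibody lay above those of the 2 groups without it. Acat2 had 21.2, 30.2 and 30.0 CPM in Lupron/anti-CSF1 tumours, 23.5, 23.0 and 22.6 CPM in anti-CSF1 tumours, 20.7, 15.8 and 27.3 CPM in Lupron tumours, and 21.3, 12.2 and 14.7 CPM in IgG tumours. Its Lupron/anti-CSF1 and IgG levels overlapped only through a Lupron/anti-CSF1 tumour at 21.2 CPM and an IgG tumour at 21.3 CPM.

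Other enzymes had estimates near 0 for Lupron/anti-CSF1 against IgG over the 12 tumours, early steps among them. Hmgcs1, which makes the precursor of mevalonate, had 123, 129 and 136 CPM in Lupron/anti-CSF1 tumours, 134, 81.8 and 137 CPM in anti-CSF1 tumours, 110.4, 84.6 and 109 CPM in Lupron tumours, and 136, 93.8 and 148 CPM in IgG tumours. Its highest and lowest tumours were IgG replicate 3 and anti-CSF1 replicate 2. Its Lupron/anti-CSF1 levels overlapped those of IgG and anti-CSF1 tumours and lay above those of Lupron tumours. The estimate against IgG was 0.039 ± 0.24, or 0.17 without IgG replicate 3. Mvk, the first mevalonate kinase, ranged from 15.6 to 24.4 CPM, Ggps1 from 29.9 to 47.1 CPM and Ebp, a sterol isomerase, from 26.1 to 45.2 CPM, with estimates of 0.18 ± 0.20, 0.049 ± 0.21 and 0.14 ± 0.22; without IgG replicate 3 the first 2 were 0.30 and 0.16. Sc5d had 58.4, 68.4 and 75.4 CPM in Lupron/anti-CSF1 tumours, 55.5, 49.2 and 57.7 CPM in anti-CSF1 tumours, 56.4, 60.1 and 61.2 CPM in Lupron tumours, and 43.9, 48.3 and 103 CPM in IgG tumours. The Lupron/anti-CSF1 levels lay above IgG replicates 1 and 2 and below IgG replicate 3, and the Sc5d estimate of 0.049 ± 0.28 was 0.55 without IgG replicate 3. A p above the threshold does not show that these levels were alike.

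**Figure D3:**
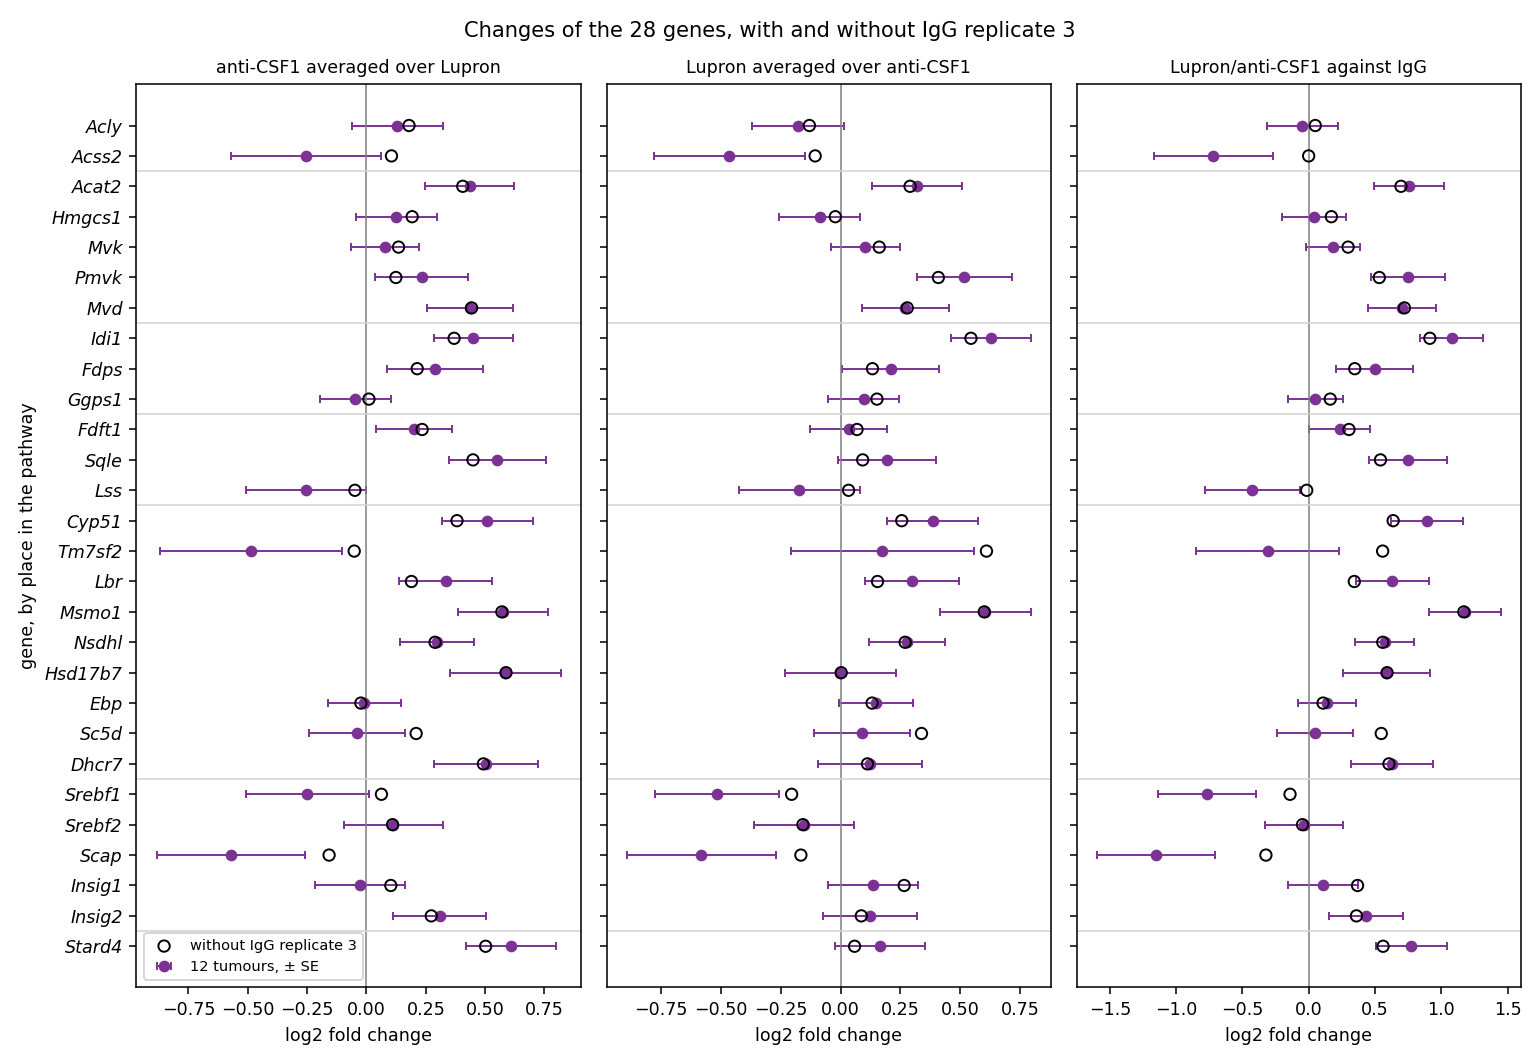
Log2 fold change of each of the 28 genes (y axis) in 3 comparisons, as estimates with their standard error over 12 tumours (filled) and without IgG replicate 3 (open). Msmo1, Idi1 and Stard4 keep positive estimates either way, and Scap, Srebf1 and Acss2 move towards or past 0.

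Medians were smaller for the single treatments against IgG, and all comparisons with IgG share its 3 tumours. With anti-CSF1 alone, the median over the 20 enzymes was 0.31, and 7 of the 28 genes (25%) lay above all IgG tumours, where 11.1% of all tested genes did; 4 were higher and 1 lower at an unadjusted p under 0.05, where 6.11% of all genes were higher and 16.7% lower. With Lupron alone, the median was 0.18, and 2 of the 28 (7.14%), Msmo1 and Idi1, lay above all IgG tumours, where 11.1% of all tested genes did; 1 was higher and 3 lower at an unadjusted p under 0.05, where 4.7% of all genes were higher and 11.7% lower. The gene lower with anti-CSF1 alone was Scap, at −1.04 ± 0.44, or −0.21 without IgG replicate 3. The 3 lower with Lupron alone were Acss2, Scap and Srebf1, at −1.08 ± 0.45, −1.05 ± 0.44 and −0.95 ± 0.37, or −0.36, −0.22 and −0.33 without that tumour. edgeR's quasi-likelihood test called 0 of the 28 in either comparison, where 0.00663% of all genes were called with anti-CSF1 and 0% with Lupron. DESeq2 called 1 of the 28 with anti-CSF1, Stard4 (adjusted p = 0.0323), where it called 12.2% of all genes, and 0 with Lupron, where it called 2.68%. Without IgG replicate 1, Stard4 was called by edgeR in both, with adjusted p of 0.00859 for anti-CSF1, where 16.8% of all genes were then called, and 0.0466 for Lupron, where 4.19% were. The median over the 28 genes with Lupron alone was 0.0878; it was −0.0145 without Lupron replicate 1, 0.21 without Lupron replicate 2 and 0.317 without Lupron replicate 2 and IgG replicate 3 together.

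For Lupron/anti-CSF1 against Lupron, the median over the 20 enzymes was 0.29 and 17 of 20 (85%) were positive, as were 55.6% of all tested genes. Of the 28 genes 6 (21.4%) lay above all Lupron tumours, where 5.86% of all tested genes did. These were Idi1, Dhcr7, Hsd17b7, Hmgcs1, Stard4 and Lbr. Without Lupron replicate 2, the lowest Lupron tumour for most enzymes, 15 of 20 were positive and the median over the 28 genes was 0.157, against 0.254 with it. For Lupron/anti-CSF1 against anti-CSF1, the median over the 20 enzymes was 0.22 and 19 of 20 (95%) were positive, as were 51.8% of all tested genes. Of the 28 genes 4 (14.3%), Idi1, Ebp, Sc5d and Lbr, lay above all anti-CSF1 tumours, where 4.75% of all tested genes did. The median over the 28 was 0.144 and was 0.0394 without anti-CSF1 replicate 2. In both comparisons 0 of the 28 and 0% of all genes were called by edgeR's quasi-likelihood test, 1 of the 28, Idi1, had an unadjusted p under 0.05 (3.57%, where 4.26% of all genes did against Lupron and 1.95% against anti-CSF1), and DESeq2 called 0 of the 28, where it called 1.56% of all genes against Lupron and 0.0398% against anti-CSF1.

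Idi1 and Lbr were the genes whose 3 Lupron/anti-CSF1 levels lay above those of all 9 other tumours, 2 of the 28 (7.14%), where 0.643% of all tested genes did so. Lbr had 66.2, 74.0 and 69.2 CPM in Lupron/anti-CSF1 tumours, 63.3, 52.2 and 58.4 CPM in anti-CSF1 tumours, 64.2, 45.4 and 60.1 CPM in Lupron tumours, and 49.7, 60.3 and 25.2 CPM in IgG tumours. Lupron replicate 1, at 64.2 CPM, was close below the lowest Lupron/anti-CSF1 tumour, at 66.2 CPM. The test of whether the antibody's change differed with and without Lupron called 0 of the 28 genes and 0% of all genes by edgeR, 0 of the 28 had an unadjusted p under 0.05, where 6.77% of all genes did, and DESeq2 called 0 of the 28 and 1.25% of all genes. The median of this interaction was −0.006 over the 20 enzymes, 10 of which (50%) were positive, as were 48.6% of all tested genes. The smallest p belonged to Acss2 (1.23 ± 0.63, adjusted p = 0.782), Srebf1 (0.87 ± 0.52, adjusted p = 0.825) and Scap (0.94 ± 0.62, adjusted p = 0.841), 3 genes with their highest level in IgG replicate 3. Without that tumour these interaction estimates were 0.51, 0.24 and 0.11.

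Among the regulators, Srebf2 had 119.8, 105 and 148 CPM in Lupron/anti-CSF1 tumours, 146, 89.4 and 156 CPM in anti-CSF1 tumours, 137, 65.7 and 123 CPM in Lupron tumours, and 144, 113 and 126 CPM in IgG tumours. Lupron replicate 2 was its lowest tumour, the groups overlapped, and its estimates were 0.11 ± 0.21 for the antibody and −0.15 ± 0.21 for Lupron, or −0.014 and −0.028 without Lupron replicate 2. Srebf1 had 52.0, 43.2 and 54.8 CPM in Lupron/anti-CSF1 tumours, 61.2, 36.6 and 60.9 CPM in anti-CSF1 tumours, 50.5, 36.3 and 45.2 CPM in Lupron tumours, and 60.8, 49.5 and 145 CPM in IgG tumours. Leaving aside IgG replicate 3, its levels ran from 36.3 to 61.2 CPM in all groups. Insig1, itself a target of SREBP, had 29.7, 45.1 and 27.0 CPM in Lupron/anti-CSF1 tumours, 35.7, 27.7 and 24.0 CPM in anti-CSF1 tumours, 35.3, 29.3 and 33.2 CPM in Lupron tumours, and 28.3, 24.2 and 41.8 CPM in IgG tumours. Its highest levels were in Lupron/anti-CSF1 replicate 2 and IgG replicate 3, and the groups overlapped. Insig2 ranged from 28.6 to 58.0 CPM, with its highest level in anti-CSF1 replicate 2. Of the 5 regulators, 2 had positive and 3 negative estimates for the antibody, and likewise for Lupron. Without IgG replicate 3, 4 of the 5 were positive for the antibody, Srebf1 and Insig1 (0.10) having turned, and still 2 for Lupron. Of the acetyl-CoA suppliers, Acly, which splits citrate, had 197, 180.3 and 203 CPM in Lupron/anti-CSF1 tumours, 239, 155 and 254 CPM in anti-CSF1 tumours, 219.7, 117 and 186 CPM in Lupron tumours, and 217, 157 and 226 CPM in IgG tumours. Its lowest tumour was Lupron replicate 2 and its highest anti-CSF1 replicate 3, and the groups overlapped. Acss2, which activates acetate, had 7.78, 8.05 and 13.0 CPM in Lupron/anti-CSF1 tumours, 9.63, 7.01 and 9.39 CPM in anti-CSF1 tumours, 5.71, 7.80 and 9.00 CPM in Lupron tumours, and 6.96, 12.3 and 28.2 CPM in IgG tumours. IgG replicate 3 was its highest tumour, and its estimates were −0.25 ± 0.32 for the antibody and −0.46 ± 0.32 for Lupron. Without that tumour the Acss2 antibody estimate turned to 0.11.

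A further list of 27 SREBP targets and genes of lipid and sterol handling outside the 28 had 26 tested genes. edgeR's quasi-likelihood test called 0 of them in any comparison. For the antibody 15 were positive and 11 negative with a median of 0.086, where 52.2% of all tested genes were positive; 6 were higher and 1 lower at an unadjusted p under 0.05, where 5.32% of all genes were higher and 13.7% lower. Without IgG replicate 3, 18 were positive, with a median of 0.234. Among those with the smallest p were Rdh11, a retinol dehydrogenase (0.58 ± 0.17, adjusted p = 0.121), and Npc1, which exports cholesterol from lysosomes (0.54 ± 0.17, adjusted p = 0.146). Npc1 had 83.1, 75.7 and 87.4 CPM in Lupron/anti-CSF1 tumours, 72.8, 70.5 and 97.6 CPM in anti-CSF1 tumours, 63.1, 41.4 and 69.7 CPM in Lupron tumours, and 69.3, 46.8 and 46.0 CPM in IgG tumours. For Lupron 11 were positive and 15 negative with a median of −0.19, or −0.00888 without IgG replicate 3, and Gpam, the first enzyme of triglyceride synthesis, was at −0.95 ± 0.42, Me1, the malic enzyme that supplies NADPH, at −0.56 ± 0.29 and Acsl3, a fatty acid activating enzyme, at 0.32 ± 0.15, each with an adjusted p of 0.525. Gpam was at 95.1 CPM in IgG replicate 3 and at 9.29 to 15.3 CPM in the other 11 tumours. Me1 was at 85.8 CPM in that tumour and at 19.0 to 34.1 CPM in the others. Without IgG replicate 3 the Lupron estimates were −0.20 for Gpam and −0.15 for Me1.

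Markers of other cell types differed between the same groups. The summed level of 9 macrophage genes was 169 to 236 CPM in Lupron/anti-CSF1 tumours, 152 to 290.4 CPM in anti-CSF1 tumours, 899 to 1175 CPM in Lupron tumours and 392 to 1193 CPM in IgG tumours. With the antibody, 7 of the 9 passed as lower by edgeR's quasi-likelihood test, where 1.79% of all tested genes did. Smooth muscle genes summed to 430.0 to 817 CPM in Lupron/anti-CSF1 tumours, 437 to 649.6 CPM in anti-CSF1 tumours, 394 to 1722 CPM in Lupron tumours and 659 to 12505 CPM in IgG tumours, the highest being IgG replicate 3. Of these 9 genes 8 had negative antibody estimates, where 52.2% of all tested genes had positive ones. Proliferation genes summed to 2547 to 2721 CPM in Lupron/anti-CSF1 tumours, 2047 to 3040.2 CPM in anti-CSF1 tumours, 1493 to 2790.0 CPM in Lupron tumours and 177 to 2698 CPM in IgG tumours. All 15 proliferation genes had positive antibody estimates, where 52.2% of all tested genes did. Of the 15, 0 passed, where 0.0796% of all tested genes passed as higher. The lowest sums were those of 2 tumours without the antibody, IgG replicate 3 at 177 CPM and Lupron replicate 2 at 1493 CPM. Estimates for this list without IgG replicate 3 are not given here. Normal prostate secretion genes summed to 51452 CPM in IgG replicate 3 and fat genes to 2202 CPM, both the highest of the 12 tumours. Of the secretion sum, 45167 CPM came from Sbp alone, which was at 1.53 CPM or less in the other tumours. Msmb, Pigr and Defb50 were also highest in IgG replicate 3. Pbsn and Tgm4 were at 1538 and 5.41 CPM there, and at 10225 and 8218 CPM in IgG replicate 2. The part of these cell types in the levels of the cholesterol genes was not tested.

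**Figure D4:**
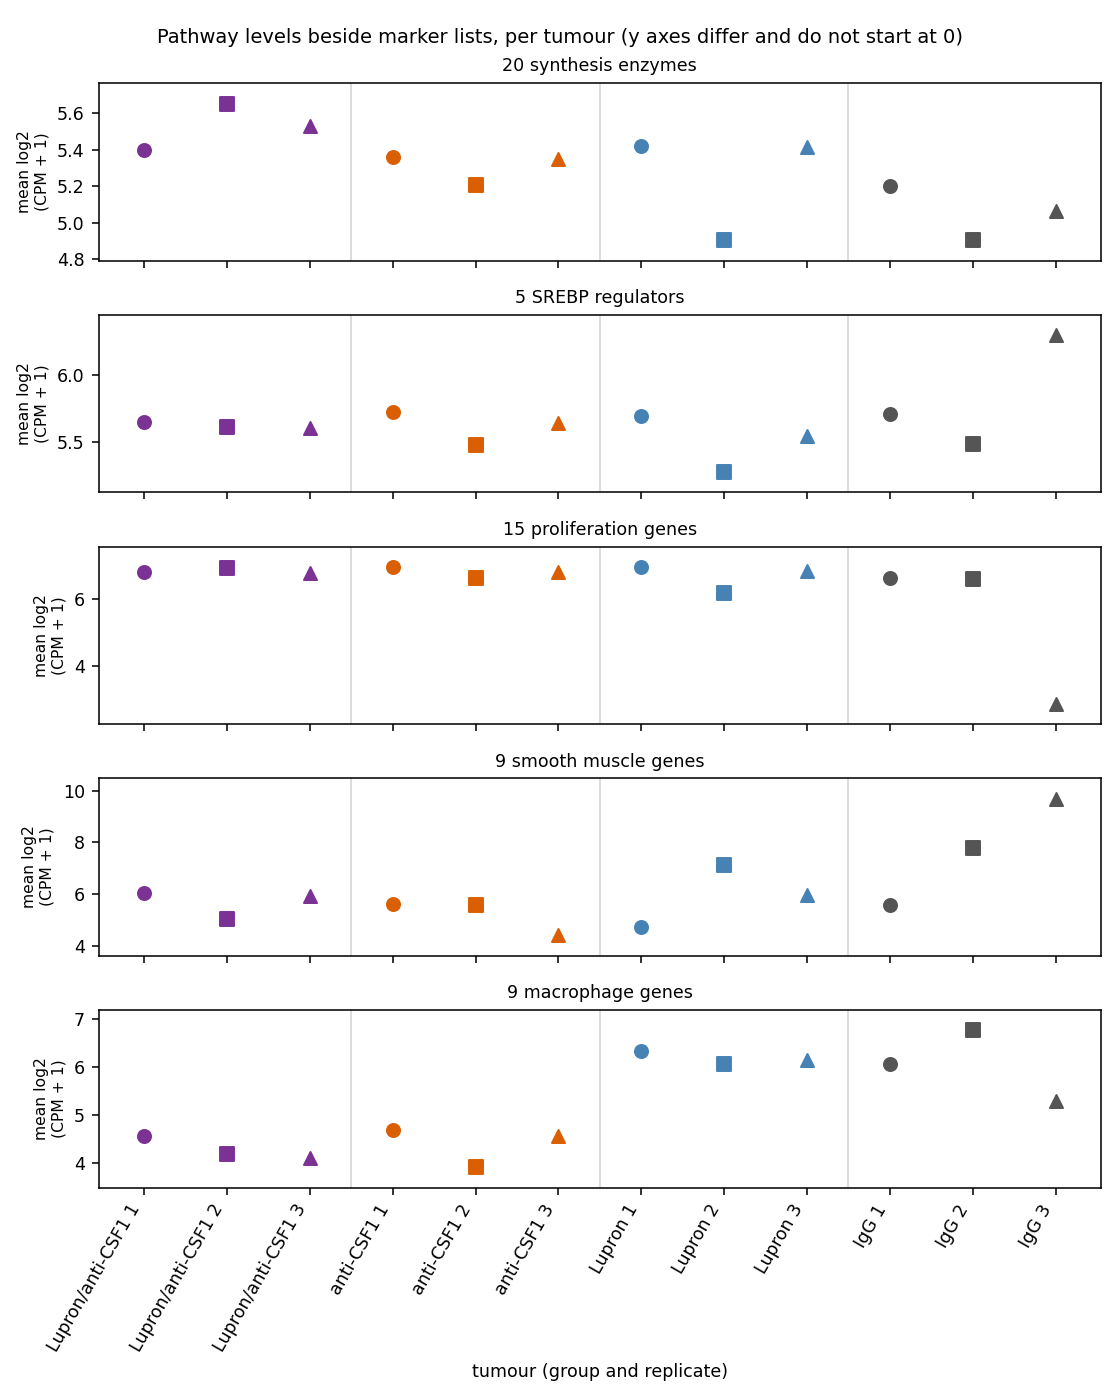
Mean log2(CPM + 1) of the 20 synthesis enzymes, the 5 SREBP regulators and 3 marker lists in each tumour (x axis, by group); the y axes differ and do not start at 0. The enzymes are lowest in Lupron replicate 2 and IgG replicate 2, both at 4.90, and the smooth muscle genes are highest in those tumours and in IgG replicate 3.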

How the data were processed

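RNA from 12 tumours, 3 in each of 4 groups, was sequenced in bulk; the labels name NuGen's Ovation kit for mouse RNA. The submitters' processing notes list build mm10, HTSeq 0.6.1, cutadapt 1.8.1 and bcl2fastq 2.20.0.422. The aligner, the annotation and any use of strand are not given in the sources, so whether reads of overlapping genes were kept apart is not known. The deposited values are raw counts per gene symbol, not normalized by the authors.

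edgeR 4.0.16 under R 4.3.3 was used with its filter on low counts, TMM scaling, 1 mean per group over all 12 libraries, and the robust quasi-likelihood F test, two-sided, with Benjamini-Hochberg adjustment over all 15082 genes tested and calls at 0.05. The procedure was first tested on simulated data, with the same spread for all genes and no outlying tumour. That test therefore does not cover a tumour like IgG replicate 3. All p-values set a group difference against the spread between tumours of a group, estimated over the 4 groups together and drawing on all genes. Standard errors of edgeR's log2 fold changes were worked back from the estimate and its F statistic. RNA integrity numbers were 8.2 to 9.8. Alternatives were DESeq2 1.42.0, RLE and upper-quartile scaling, other filters, a replicate block, the fit without the robust option, only the compared groups, and each tumour left out. The removal of IgG replicate 3 and Lupron replicate 2 together was chosen after seeing the data. The genes and lists were chosen with earlier results of these data known. All 28 genes are named. Values in every tumour are given for those called in any comparison or alternative, for the 4 of lowest p per direction of both averaged comparisons, and for Hmgcs1, Sqle, Insig1, Srebf1, Srebf2 and Acly; Lbr and Sc5d were added after their values were seen. Of the further list, the 3 of lowest p per averaged comparison are named. A gene that the naming rule gives is not reported here.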

Additional observations from a re-analysis of the deposited data

How the results depend on the processing

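Under RLE or upper-quartile scaling, no or a stricter filter on low counts, the fit without the robust option and the fit to the compared groups alone, 0 of the 28 genes were called in any comparison, as in the main analysis. DESeq2 called 1 for the averaged antibody comparison, 1 for anti-CSF1 against IgG and 3 for Lupron/anti-CSF1 against IgG. With each tumour left out in turn, the number called ran from 0 to 1 for the averaged antibody comparison, for anti-CSF1 against IgG and for Lupron against IgG, and from 0 to 6 for Lupron/anti-CSF1 against IgG, each maximum being reached without IgG replicate 1. The median of the interaction ran from −0.0742 to 0.2302 with each tumour left out and was −0.118 without IgG replicate 3 and Lupron replicate 2, and the median for Lupron against IgG ran from −0.0145 to 0.21 and was 0.317 without that pair. Stard4 for the averaged antibody comparison was called by DESeq2 (0.59) and without IgG replicate 1 (0.83). The antibody estimate of Srebf1 ran from −0.383 to 0.063 with each tumour left out, was 0.063 without IgG replicate 3 and 0.0021 without that tumour and Lupron replicate 2. Causes were not tested. Over all genes, the averaged antibody comparison called 282, against 1577 without IgG replicate 1, 65 without anti-CSF1 replicate 3, 151 with a replicate block and 1425 by DESeq2.

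The labels share replicate numbers but name no common source, and the correlation of deviations was not over 0.1 in every pair of the same number: over 18 such pairs it ran from −0.304 to 0.513 with a median of 0.0949, against −0.0604 over 36 pairs of different number, and 6 of 12 libraries were closest to their own number. With a replicate block 0 of the 28 genes were called in any comparison, and their median was 0.231 for the antibody and 0.323 for Lupron/anti-CSF1 against IgG. Depth limits Tm7sf2 most, at 1.78 to 8.83 CPM.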
